A study of Mus musculus with 20 samples.

Results

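Hepatokines are proteins that the liver secretes and that act on other organs, as hormones or as inhibitors of plasma enzymes. The 9 hepatokine genes described here, Fgf21, Gdf15, Fetub, Ahsg, Lect2, Angptl4, Angptl8, Inhbe and Enho, were chosen by name and matched by symbol in a table of read counts for 55487 gene identifiers, of which 21936 were protein coding. All 9 were found, and all 9 passed the filter on low counts. They were measured by RNA sequencing of whole liver from 20 female C57BL/6J mice aged 28 weeks. The 5 chow mice had eaten a chow diet throughout. The other 15 mice were fed a high-fat diet (HFD) from 8 weeks of age and then, for the last 10 weeks, isocaloric HFDs in which 50% of the protein came from fishmeal made of salmon by-products, from salmon filet or from beef, with 5 mice on each as the column names of the table give them. The sample annotation puts mouse 31, a beef column, in the salmon group. Comparisons that use salmon filet or beef are therefore given with mouse 31 as beef, and values under the other assignment stand beside the results that they change. HFD feeding and its protein source both differ from chow, so they cannot be told apart in any comparison with chow. Per the paper, the HFDs also differed from each other in cholesterol, added soybean oil and fatty acids. In any comparison between HFDs these cannot be told apart from the protein source.

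FGF21 is a fasting and stress hormone that signals through FGF receptors with the coreceptor beta-klotho (Klb), and GDF15 is a stress-induced cytokine whose receptor is GFRAL. Fetuin-A (Ahsg) and fetuin-B (Fetub) are abundant plasma glycoproteins, and LECT2 is a hepatocyte-derived factor that binds MET and TIE1. ANGPTL4 and ANGPTL8 take part in the inhibition of lipoprotein lipase. Inhbe encodes the subunit of activin E, and Enho encodes the precursor of adropin. Transcription of Fgf21 and Angptl4 is raised by the fatty acid sensor PPAR-alpha, that of Fgf21, Gdf15 and Inhbe by the stress-responsive factor ATF4, and that of Angptl8 by insulin.

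7 of the genes could be matched to a promoter in the RefSeq table (build GRCm38.p6), each a window of 300 bases from 250 before to 50 after an annotated start. Angptl4 and Enho had no promoter there and were not searched. The windows were searched on both strands for the C/EBP-ATF composite element (CARE), to which ATF4 binds, written TGATGNAA or on the other strand TTNCATCA, for the D-box TTANGTAA of the clock output factors, for the E-box CACGTG, for the cyclic AMP element TGACGTCA and for the PPAR element, a direct repeat of AGGTCA with 1 base between. Shown are the promoters that hold a CARE match and that of Lect2, the gene with the smallest adjusted p, with matches in capitals.
Fgf21, chr7:45615441-45615740, minus strand: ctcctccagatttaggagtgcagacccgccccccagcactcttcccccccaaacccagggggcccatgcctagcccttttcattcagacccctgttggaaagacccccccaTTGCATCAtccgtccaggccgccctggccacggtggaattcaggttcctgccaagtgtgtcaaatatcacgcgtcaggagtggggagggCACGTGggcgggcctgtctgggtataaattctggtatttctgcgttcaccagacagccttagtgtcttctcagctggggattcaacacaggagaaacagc
Inhbe, chr10:127351799-127352098, minus strand: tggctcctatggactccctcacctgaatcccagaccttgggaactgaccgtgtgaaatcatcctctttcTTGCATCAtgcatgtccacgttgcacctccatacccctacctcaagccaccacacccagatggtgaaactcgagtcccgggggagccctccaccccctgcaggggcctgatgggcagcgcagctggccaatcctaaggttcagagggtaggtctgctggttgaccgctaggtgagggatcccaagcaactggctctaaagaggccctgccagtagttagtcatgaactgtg
Angptl8, chr9:21835260-21835559, plus strand: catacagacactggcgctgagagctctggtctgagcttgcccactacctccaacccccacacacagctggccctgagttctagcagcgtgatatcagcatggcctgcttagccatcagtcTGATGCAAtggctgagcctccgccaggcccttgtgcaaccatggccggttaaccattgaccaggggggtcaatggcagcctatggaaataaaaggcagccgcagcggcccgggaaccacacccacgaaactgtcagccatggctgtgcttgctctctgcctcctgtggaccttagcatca
Lect2, chr13:56548489-56548788, minus strand: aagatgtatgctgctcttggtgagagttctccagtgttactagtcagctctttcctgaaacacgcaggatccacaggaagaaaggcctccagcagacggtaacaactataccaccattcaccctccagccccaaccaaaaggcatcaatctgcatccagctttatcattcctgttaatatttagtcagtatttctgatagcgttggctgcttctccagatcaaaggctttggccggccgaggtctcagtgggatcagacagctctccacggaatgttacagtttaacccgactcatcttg
The CARE match began 139 bases before the start in Fgf21, 181 in Inhbe and 130 in Angptl8. The letters TTGCATCA were the same in Fgf21 and Inhbe, and Angptl8 held their reverse complement. A CARE match was present in 3.97% of all 32851 promoter windows in the table. The second match of Fgf21, CACGTG, began 50 bases before the start, and 1 of the 2 windows of Gdf15 held the same letters 83 bases before its start. CACGTG was found in 7.15% of all windows. The windows of Fetub, Ahsg and Lect2 held none of the 5 motifs searched. The D-box was found in 2.32%, the cyclic AMP element in 1.79% and the PPAR element in 0.0396% of all windows.

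The 20 libraries held 42526234 to 70266136 counts on genes, and the lowest count of any of the 9 genes in a library was 17, for Fgf21. The library of mouse 35, a beef mouse, had 84.3% of its counts on protein coding genes, against 93.2% to 95.6% in the other 19. Levels between genes are compared in TPM, the deposited values that are divided by gene length and scaled to the same total in each library, and levels of 1 gene between mice in CPM, read counts scaled to the library size by the TMM method of edgeR. The hepatocyte markers, all 6 detected, summed to 94522 to 118930.0 CPM in chow and 84776 to 113821 CPM in HFD mice. The lymphocyte markers summed to 4.23 to 8.41 CPM in chow and 1.62 to 4.28 CPM in HFD mice, and 4 of the 6 were lower in the HFD mice. The adipocyte markers, 5 of 6 detected, summed to 4.67 to 12.8 and 6.6 to 49.7 CPM. The exocrine pancreas markers summed to 8.58 to 10.8 and 10.7 to 25.9 CPM. Of these 6 only Cela1 passed the filter on low counts, and it was higher in HFD mice, at 16.3 ± 4.39 CPM against 9.55 ± 0.967 CPM in chow. Among 6 red cell markers only Alas2 had an adjusted p under 0.05 in edgeR, higher in HFD mice by 0.71 on the log2 scale. Among 6 endothelial markers only Clec4g (-0.29) did so, and among 6 bile duct markers only Sox9 (-0.61), both lower. The bile duct markers summed to a median of 54.5 CPM in chow and 60.2 CPM in HFD mice. Their median log2 fold change was -0.17. No hepatocyte, Kupffer cell or stellate cell marker reached that threshold. The part of these in the results below was not tested. In whole tissue, fewer cells of a type and less RNA per cell cannot be told apart.

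The 9 genes spanned a wide range of expression and together took 0.692% to 1.11% of all counts. Ahsg stood first with 9453 ± 1484 TPM (SD, n = 20), followed by Fetub with 419 ± 66.4 TPM, Lect2 with 393 ± 92.9 TPM and Angptl8 with 129 ± 71.5 TPM. Angptl4 had 40.5 ± 17.8 TPM and Inhbe 37.2 ± 17.2 TPM. Enho with 11.1 ± 6.42 TPM, Fgf21 with 8.81 ± 7.01 TPM and Gdf15 with 6.5 ± 4.52 TPM were the lowest. Below Ahsg, each gene's range across mice overlapped that of the next gene in this order. The genes also differed in how far the mice were apart. Among all 20 mice, the highest level was 36.6 times the lowest for Fgf21 and 17.6 times for Gdf15, against 1.9 times for Fetub and 1.67 times for Ahsg. Chow mice alone spanned 20.1 times for Fgf21 and 1.33 times for Lect2.

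**Figure D1:**
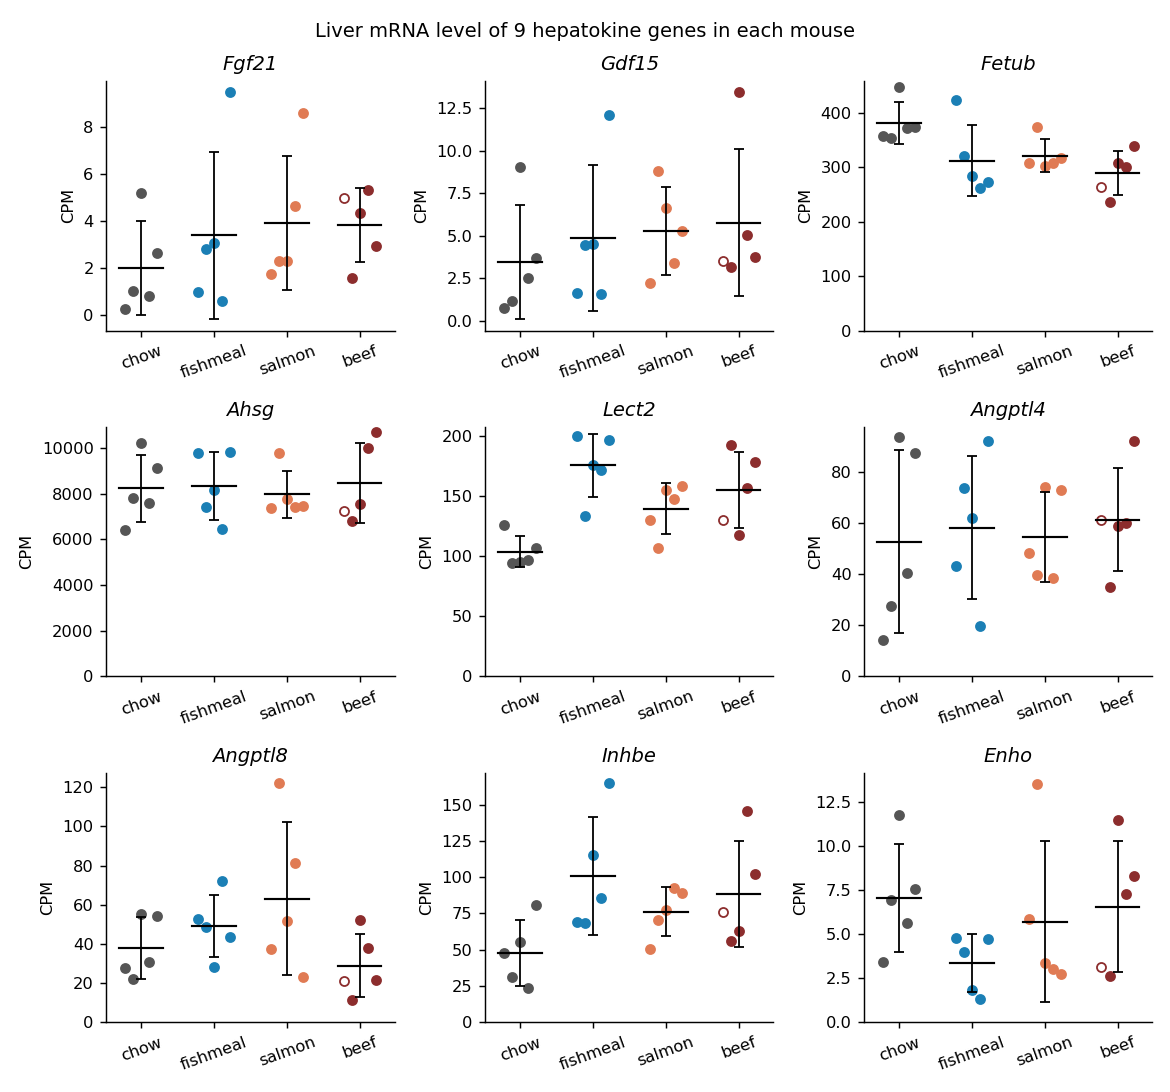
Each point is the level of 1 gene in 1 mouse in CPM, by group, with the group mean as a horizontal line and the SD as a bar (n = 5 per group). The open point is mouse 31. For Lect2 all 15 HFD mice lie above the chow mean and 13 lie above the highest chow mouse, while for Fgf21 and Gdf15 the groups overlap.

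To ask whether HFD feeding changed hepatokine transcripts at all, the 15 HFD mice were compared with the 5 chow mice. Lect2 and Inhbe rose, and the other 7 genes did not pass the test. The count of 2 of 9 genes stands beside 9.75% of all 17120 genes tested that passed the same threshold, an adjusted p under 0.05 in edgeR's quasi-likelihood test. For 9 genes that share corresponds to fewer than 1 gene, and whether the count of 2 differs from it was not tested.

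Lect2 lies on chr13:56542464-56548502 (minus strand). Lect2 was at 94.7, 95.2, 97, 107 and 126 CPM in chow, at 134, 172, 176, 197 and 199.9 CPM in fishmeal, at 107, 130.4, 148, 155 and 158 CPM in salmon filet and at 118, 129.9, 156, 178 and 193 CPM in beef mice. All 15 HFD mice were above the chow mean, and 13 were above the highest chow mouse. The mean was 104 ± 13.2 CPM in chow (SD, n = 5) and 157 ± 29.2 CPM in HFD mice (SD, n = 15), a 1.51-fold difference (log2 fold change 0.59, SE 0.13, 95% interval 0.32 to 0.86, edgeR adjusted p = 0.00547). The call held when any single mouse was left out, with an adjusted p of at most 0.0225.

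Inhbe lies on chr10:127348857-127354411 (minus strand), a span that contains the promoter window shown above. Inhbe was at 23.4, 31.1, 47.4, 55.4 and 80.8 CPM in chow, at 68.4, 68.9, 85.9, 115 and 165 CPM in fishmeal, at 50.7, 70.3, 77.5, 89.2 and 92.7 CPM in salmon filet and at 55.8, 63, 76.2, 102 and 146 CPM in beef mice. All 15 HFD mice were above the chow mean but only 7 were above the highest chow mouse, mouse 10. The mean was 47.6 ± 22.5 CPM in chow and 88.4 ± 32.3 CPM in HFD mice (log2 fold change 0.89, SE 0.27, 95% interval 0.34 to 1.45, edgeR adjusted p = 0.0359). Inhbe no longer passed without chow mouse 1, 2, 5 or 7, with adjusted p of 0.089, 0.119, 0.0501 and 0.129.

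Fetub lies on chr16:22918334-22939778 (plus strand), close to Ahsg on the same chromosome. Fetub was at 354, 358, 373, 375 and 448 CPM in chow, at 262, 274, 284, 320.4 and 424 CPM in fishmeal, at 302, 308, 308, 317 and 374 CPM in salmon filet and at 237, 264, 302, 307 and 339 CPM in beef mice. In 13 of the 15 HFD mice the level was below the lowest chow mouse, and fishmeal mouse 12 alone was above the chow mean. The mean was 382 ± 38.4 CPM in chow and 308 ± 46.3 CPM in HFD mice (log2 fold change -0.31, SE 0.10, 95% interval -0.52 to -0.0994, edgeR adjusted p = 0.0547), which missed the threshold. The adjusted p was 0.036 in DESeq2, 0.0143 in limma on log2(TPM + 1) and 0.0115 without mouse 12. Ahsg, in contrast, gave 8227 ± 1475 CPM in chow and 8247 ± 1365 CPM in HFD mice (log2 fold change 0.00338, SE 0.13, 95% interval -0.26 to 0.27, edgeR adjusted p = 0.992).

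Fgf21 (chr7:45613886-45615490, minus strand) had the widest spread across the 20 mice, as the ratio of the highest to the lowest level. Fgf21 was at 0.26, 0.785, 1.03, 2.66 and 5.21 CPM in chow, at 0.612, 0.993, 2.81, 3.05 and 9.49 CPM in fishmeal, at 1.76, 2.28, 2.32, 4.63 and 8.63 CPM in salmon filet and at 1.55, 2.94, 4.33, 4.98 and 5.34 CPM in beef mice. The groups overlapped, and 11 of 15 HFD mice were above the chow mean. The difference did not pass the test (log2 fold change 0.90, SE 0.56, 95% interval -0.27 to 2.06, edgeR adjusted p = 0.347). Chow mouse 5 alone had 5.21 CPM, and without this mouse the log2 fold change was 1.65 with an adjusted p of 0.0929.

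Gdf15 (chr8:70629393-70632456) also overlapped between groups. Gdf15 was at 0.763, 1.15, 2.53, 3.69 and 9.06 CPM in chow, at 1.57, 1.65, 4.43, 4.49 and 12.1 CPM in fishmeal, at 2.2, 3.41, 5.27, 6.65 and 8.81 CPM in salmon filet and at 3.15, 3.5, 3.76, 5.01 and 13.4 CPM in beef mice. Fishmeal mouse 20 and beef mouse 35 stood above all others, and chow mouse 5 was the highest chow mouse for Gdf15 as for Fgf21. The means were 3.44 ± 3.35 CPM in chow and 5.29 ± 3.57 CPM in HFD mice (log2 fold change 0.62, SE 0.50, 95% interval -0.41 to 1.65, edgeR adjusted p = 0.482). Without chow mouse 5 the log2 fold change was 1.38 with an adjusted p of 0.1.

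For the lipoprotein lipase inhibitors, Angptl4 (chr17:33773750-33781830) ranged from 14.2 to 93.5 CPM in chow and from 19.6 to 92.1 CPM in HFD mice (log2 fold change 0.14, SE 0.33, 95% interval -0.55 to 0.83, edgeR adjusted p = 0.843). All 15 HFD mice lay within the range of the chow mice. Angptl8 (chr9:21835510-21837347, inside an intron of Dock6 and on its other strand) had 38 ± 15.7 CPM in chow and 47 ± 28.3 CPM in HFD mice (log2 fold change 0.31, SE 0.38, 95% interval -0.47 to 1.09, edgeR adjusted p = 0.668). Enho (chr4:41638144-41640324), which shares 15 exonic bases with Dnaic1 on the other strand, had 7.06 ± 3.06 CPM in chow and 5.19 ± 3.55 CPM in HFD mice (log2 fold change -0.45, SE 0.40, 95% interval -1.267 to 0.38, edgeR adjusted p = 0.533). For Enho 7 of the 15 HFD mice were below the lowest chow mouse and 1, salmon filet mouse 23, was above the highest.

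**Figure D2:**
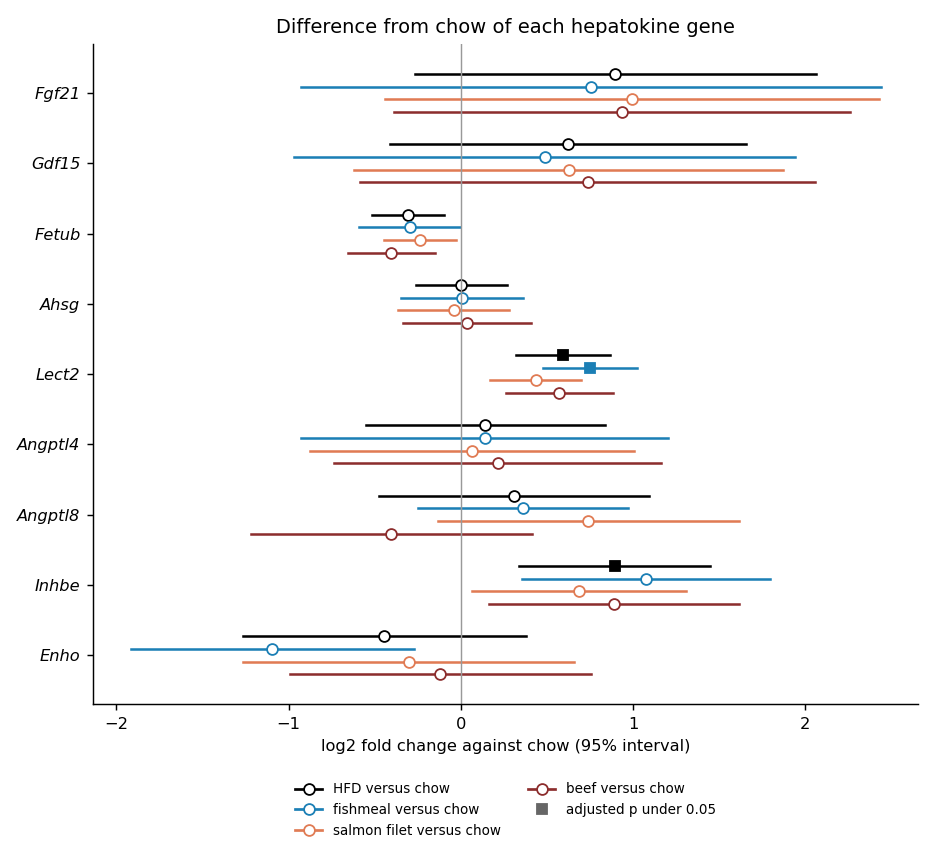
Points are log2 fold changes against chow of the 9 genes for all HFD mice (black) and for each protein source (colours), and bars are 95% intervals. Filled squares mark an adjusted p under 0.05, reached by Lect2 and Inhbe in all HFD mice and by Lect2 in the fishmeal mice.

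Each protein source was then compared with chow on its own. These 3 comparisons share the 5 chow mice and are not independent. Lect2 passed in the fishmeal mice, 1 of 9 genes beside 3.38% of the 16471 genes tested. All 5 fishmeal mice were above all 5 chow mice (log2 fold change 0.75, SE 0.13, adjusted p = 0.00634). How many of all genes separate in this way was not counted for this comparison. The log2 fold change of Lect2 was 0.43 in the salmon filet mice (SE 0.12, adjusted p = 0.0626) and 0.57 in the beef mice (SE 0.14, adjusted p = 0.0508), both just short of the threshold. The other 8 genes did not pass in fishmeal. In salmon filet and in beef none of the 9 passed, while 4.42% of 16475 and 3.05% of 16339 genes did. In each of these 2 comparisons 3 of the 9, Lect2, Inhbe and Fetub, had an unadjusted p under 0.05 in edgeR, as did 23.8% of all genes tested in salmon filet and 18.4% in beef. With mouse 31 in the salmon group, as annotated, Lect2 in the beef mice had an adjusted p of 0.0499. DESeq2 gave an adjusted p of 0.0162 for Lect2 in salmon filet and 0.00629 in beef. It passed 1748 of 16475 genes in salmon filet and 1184 of 16339 in beef.

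Inhbe had log2 fold changes of 1.08 in fishmeal (SE 0.33, adjusted p = 0.104), 0.68 in salmon filet (SE 0.29, adjusted p = 0.175) and 0.89 in beef mice (SE 0.33, adjusted p = 0.175). With the clock score described further on as a covariate, the value in fishmeal was 0.018 (95% interval -0.71 to 0.75). In salmon filet it was then 0.28 (95% interval -0.62 to 1.18). The same covariate in fishmeal gave -0.22 for Fetub (95% interval -0.67 to 0.24) and -1.45 for Enho (95% interval -2.64 to -0.26). Without the covariate, the values for Fetub were -0.30 in fishmeal (SE 0.14, adjusted p = 0.288), -0.24 in salmon filet (SE 0.0953, adjusted p = 0.159) and -0.40 in beef mice (SE 0.12, adjusted p = 0.0878). All 5 beef mice were below the lowest chow mouse for Fetub, and DESeq2 gave an adjusted p of 0.026 there. How many of all genes separate in this way was not counted. Between beef and chow 1184 of 16339 genes passed in DESeq2, against 499 in edgeR. Enho was lowest in the fishmeal mice. Enho was at 3.44, 5.65, 6.92, 7.54 and 11.8 CPM in chow, at 1.33, 1.84, 3.99, 4.74 and 4.78 CPM in fishmeal, at 2.72, 3.01, 3.34, 5.86 and 13.5 CPM in salmon filet and at 2.62, 3.13, 7.26, 8.29 and 11.5 CPM in beef mice. All 5 fishmeal mice were below the chow mean, 2 of them below the lowest chow mouse (log2 fold change -1.09, SE 0.38, adjusted p = 0.15), and DESeq2 gave an adjusted p of 0.0445. In DESeq2 Inhbe in the fishmeal mice had an adjusted p of 0.0146. Between fishmeal and chow 1173 of 16471 genes passed in DESeq2, against 556 in edgeR.

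To compare the protein sources, the 3 HFD groups were set against each other. None of the 27 differences passed in edgeR (smallest adjusted p 0.92) or in DESeq2. Of all genes tested, 0.17% passed between fishmeal and salmon filet, 0.0245% between fishmeal and beef and 0 of 16212 (0%) between salmon filet and beef, where 796 genes had an unadjusted p under 0.05 in edgeR and 6 passed in DESeq2. Angptl8, which insulin raises in liver, was the gene furthest apart. Angptl8 was at 21.8, 27.8, 30.5, 54.4 and 55.3 CPM in chow, at 28.4, 43.7, 48.7, 52.6 and 72.1 CPM in fishmeal, at 23.3, 37.5, 51.6, 81.4 and 122 CPM in salmon filet and at 11.6, 20.9, 21.4, 38.1 and 52.3 CPM in beef mice. Every group overlapped every other. The salmon filet mice averaged 63.2 ± 39.3 CPM and the beef mice 28.8 ± 16.2 CPM (log2 fold change 1.137, SE 0.46, 95% interval 0.14 to 2.13, edgeR adjusted p = 0.922). With mouse 31 as salmon, the log2 fold change was 0.87 (95% interval -0.26 to 2.00). Between fishmeal and beef, Angptl8 differed by 0.77 on the log2 scale (95% interval 0.00588 to 1.53) and Enho by -0.98 (95% interval -1.93 to -0.0205). Between fishmeal and salmon filet, Lect2 differed by 0.31 (95% interval 0.0226 to 0.61). These 4 differences had an unadjusted p under 0.05 and did not pass after adjustment. An unadjusted p under 0.05 was found for 5.16% of all genes between fishmeal and salmon filet, 2.59% between fishmeal and beef and 4.91% between salmon filet and beef. With mouse 31 as salmon, Angptl8 between fishmeal and beef differed by 0.67 (95% interval -0.16 to 1.49), and both differences of Angptl8 then had an unadjusted p above 0.05. For Ahsg the interval between fishmeal and beef ran from -0.40 to 0.35, and for Lect2 from -0.16 to 0.51, on the log2 scale.

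Ordered by group mean with mouse 31 as beef, chow was lowest for Fgf21, Gdf15, Lect2, Angptl4 and Inhbe, and highest for Fetub and Enho. Fishmeal was highest for Lect2 and Inhbe and lowest for Enho. Salmon filet was highest for Fgf21 and Angptl8 and lowest for Ahsg, and beef was highest for Gdf15, Ahsg and Angptl4 and lowest for Fetub and Angptl8. With mouse 31 as salmon, the beef mean of Enho was 7.41 CPM, above the 7.06 CPM of chow, and fishmeal and salmon filet changed places for Fetub, with 312.6 and 312.3 CPM. For none of the 9 genes did 2 neighbours in that order differ by edgeR's adjusted p.

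Lists of genes of the pathways that act on these hepatokines, some of which hold hepatokine genes themselves, were examined in the same comparison of HFD with chow. The median log2 fold change of all genes there was 0.00499. Of all 17120 genes tested, 777 rose and 892 fell, together 9.75%. Whether the count in any list differs from that share was not tested. Of 17 ATF4 and integrated stress response targets tested, 3 rose and 1 fell, with a median log2 fold change of 0.44. The list holds 3 of the 9 hepatokine genes, and Inhbe is 1 of the 3 that rose. Chac1, which degrades glutathione, rose by 2.22 (SE 0.50, adjusted p = 0.00626) and Trib3, a pseudokinase that restrains AKT, by 1.04 (SE 0.33, adjusted p = 0.0484) on the log2 scale, while Atf4 itself changed by -0.42 (SE 0.12, adjusted p = 0.0347). Chac1 was low, at 0.622 ± 0.34 CPM in chow and 2.87 ± 1.74 CPM in HFD mice. So was Trib3, at 1.76 ± 0.902 CPM in chow and 3.62 ± 1.56 CPM in HFD mice.

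Of 21 PPAR-alpha targets, 2 rose and 1 fell, with a median of 0.28. The list holds Fgf21 and Angptl4, which did not pass. The fatty acid transporter Cd36 rose by 0.96 (SE 0.20, adjusted p = 0.00391) and the pantetheinase Vnn1 by 1.08 (SE 0.28, adjusted p = 0.0156), while Pdk4, which inhibits pyruvate dehydrogenase, changed by -1.29 (SE 0.32, adjusted p = 0.0119). Of 19 targets of insulin, SREBP-1c and ChREBP, 2 rose and none fell, with a median of 0.23. Srebf1, which encodes SREBP-1c, rose by 1.42 (SE 0.18, adjusted p = 2.22e-05). Angptl8 and Fgf21, which belong to that list, did not pass.

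Of 17 receptors and partners of the hepatokines tested, 3 rose and none fell, with a median of 0.0172. They were Gpr19, proposed as a receptor for adropin, with 0.40 (SE 0.0951, adjusted p = 0.0091), the LECT2 receptor Met with 0.34 (SE 0.1, adjusted p = 0.0307) and the FGF21 coreceptor Klb with 0.33 (SE 0.10, adjusted p = 0.0415). Met also rose in the comparison of fishmeal with chow, by 0.43 (SE 0.10, adjusted p = 0.0426), as did Lect2.

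Of 23 other secreted liver proteins, 2 rose and 4 fell, with a median of -0.10. Inhbc, which encodes another activin subunit, rose by 0.65 (SE 0.17, adjusted p = 0.0142), from 39.9 ± 11.2 CPM in chow to 62.9 ± 13 CPM in HFD mice. Inhba, the subunit of activin A, changed in the other direction, by -0.93 (SE 0.16, adjusted p = 0.000805). The hyaluronan-binding protein Itih5 changed by -1.53 (SE 0.11, adjusted p = 1.11e-08), tsukushi (Tsku) by -1.66 (SE 0.32, adjusted p = 0.00211) and Igfbp2, which binds insulin-like growth factors, by -1.05 (SE 0.24, adjusted p = 0.00675). Smoc1 rose by 0.41 (SE 0.10, adjusted p = 0.0138).

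To see which hepatokine transcripts varied together, group means were subtracted from the log2 CPM of each gene and the 20 mice were correlated over the 36 pairs of genes. The points share library and depth. 7 pairs passed after adjustment over the 36, all positive. They joined Fgf21, Gdf15 and Angptl4 in one trio, Ahsg, Fetub and Enho in another, and 1 pair between them. Fgf21 and Angptl4 gave r = 0.822 (rho = 0.768, permutation p = 0.00032 and 0.00105, adjusted p = 0.0112 and 0.0203). Fgf21 and Gdf15 gave r = 0.769 (rho = 0.678, permutation p = 0.00125 and 0.00654, adjusted p = 0.0112 and 0.0392), and Gdf15 and Angptl4 r = 0.731 (rho = 0.734, permutation p = 0.00327 and 0.00257, adjusted p = 0.0196 and 0.0308). In the other trio, Ahsg and Enho gave r = 0.747 (rho = 0.68, permutation p = 0.00094 and 0.00541, adjusted p = 0.0112 and 0.039), Fetub and Enho r = 0.72 (rho = 0.753, permutation p = 0.00067 and 0.00113, adjusted p = 0.0112 and 0.0203) and Fetub and Ahsg r = 0.686 (rho = 0.586, permutation p = 0.00315 and 0.0237, adjusted p = 0.0196 and 0.0776). The pair between the trios, Ahsg and Angptl4, gave r = 0.628 (rho = 0.564, permutation p = 0.00725 and 0.02, adjusted p = 0.0373 and 0.0755). By rank, Fetub with Ahsg and Ahsg with Angptl4 did not pass after adjustment. Without the 2 mice farthest from the median of the first gene, r stayed between 0.521 and 0.79 in the 7 pairs. Within the 15 HFD mice, r was between 0.46 and 0.719. Without chow mouse 5, the highest chow mouse for Fgf21, Gdf15, Angptl4, Fetub, Ahsg and Enho, 4 pairs passed.

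Lect2 passed with none of the other 8 genes. Its r ranged from -0.492 with Angptl8 (rho = -0.406, permutation p = 0.0543 and 0.0993, adjusted p = 0.13 and 0.188) to 0.314 with Inhbe (rho = 0.262, permutation p = 0.202 and 0.312, adjusted p = 0.303 and 0.416). Inhbe and Fgf21 gave r = 0.583 (rho = 0.687, permutation p = 0.0218 and 0.00388, adjusted p = 0.0872 and 0.0349), which did not pass by Pearson's r.

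**Figure D3:**
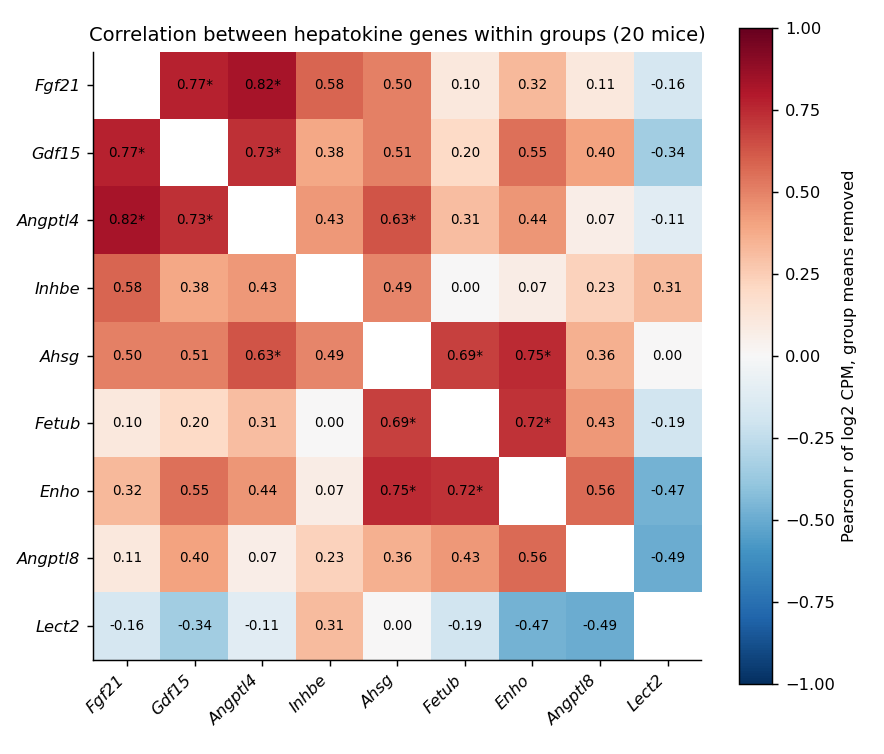
Each cell is the Pearson r of log2 CPM between 2 hepatokine genes over 20 mice after group means were removed, on a colour scale from -1 to 1, and an asterisk marks an adjusted p under 0.05. The 3 pairs among Fgf21, Gdf15 and Angptl4 and the 3 pairs among Ahsg, Fetub and Enho carry asterisks, as does Ahsg with Angptl4.

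By the same measure, the protein coding genes most like each hepatokine gene were listed, up to 3 for each, among 11565 genes with a mean of at least 1 CPM. They were chosen for their r, which is given as a description with n = 20 mice. Among the genes most like Angptl4 were Rcl1 (r = 0.914) and Acaa1a (r = 0.899), which encodes an enzyme of peroxisomal fatty acid oxidation. Fgf21 was followed by Tnfaip8l1 (r = 0.92), Abcg8 (r = 0.904) and Cmip (r = 0.891), of which Abcg8 encodes a sterol exporter. Gdf15 was followed by Zfp36 (r = 0.882), Sik3 (r = 0.88) and Dnmbp (r = 0.876), and Zfp36 encodes an RNA-binding protein that destabilises mRNAs. Inhbe was followed by Mfsd2a (r = 0.843), Gemin2 (r = 0.819) and Optn (r = 0.814), and Mfsd2a encodes a lysophosphatidylcholine transporter. Lect2 was followed by Gskip (r = 0.825), Ugp2 (r = 0.824) and Dnase2b (r = 0.819), of which Ugp2 makes UDP-glucose for glycogen synthesis. Among the genes most like Angptl8 were Id3 (r = 0.833) and Ubtf (r = 0.826). For the trio of Ahsg, Fetub and Enho, the genes were Mustn1 (r = 0.903), Eif3k (r = 0.889) and Tsta3 (r = 0.888) for Ahsg, Eef1b2 (r = 0.907), Csnk2b (r = 0.904) and Wfdc21 (r = 0.893) for Fetub and Man2b2 (r = 0.902), Eif6 (r = 0.9) and Os9 (r = 0.899) for Enho. Eif3k, Eef1b2 and Eif6 encode translation factors.

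Liver clock genes differed between the groups and moved with some of the hepatokine genes. Of 10 clock genes that peak with Dbp, 8 rose in the HFD mice, Dbp itself by 4.70 (SE 1.00, adjusted p = 0.00423) on the log2 scale, and of 6 that peak with Arntl, Clock and Cry1 fell. A clock score, the mean log2 CPM of the first set minus that of the second, ran from -2.76 to -0.79 in chow and from -1.92 to 3.13 in HFD mice, with 2 of the 15 HFD mice in or below the chow range. Within groups, the score rose with Gdf15 (r = 0.599, rho = 0.626, permutation p = 0.0047 and 0.00397, adjusted p = 0.0418 and 0.0122), Ahsg (r = 0.606, rho = 0.705, permutation p = 0.0137 and 0.00253, adjusted p = 0.0418 and 0.0122), Inhbe (r = 0.559, rho = 0.629, permutation p = 0.0139 and 0.00408, adjusted p = 0.0418 and 0.0122) and Angptl4 (r = 0.473, rho = 0.517, permutation p = 0.0187 and 0.0153, adjusted p = 0.0422 and 0.0345), with adjustment over the 9 genes. Without the 2 mice of the most distant scores, r was 0.724, 0.543, 0.621 and 0.547. Lect2 (r = 0.211, rho = 0.229, permutation p = 0.462 and 0.393, adjusted p = 0.467 and 0.443) and the other 4 genes did not pass. These correlations were chosen after the data had been seen.

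With the score as a covariate in the comparison of HFD with chow, no hepatokine gene passed, and 313 of 17120 genes did. The log2 fold change of Lect2 was then 0.49 (95% interval 0.14 to 0.84, edgeR adjusted p = 0.158), beside 0.59 without the covariate. That of Inhbe was 0.33 (95% interval -0.23 to 0.90, edgeR adjusted p = 0.694), less than the 0.89 without it. For Enho it was -1.15 (95% interval -2.16 to -0.15, edgeR adjusted p = 0.287), beside -0.45 without it. Since the score and the diet went together, the part of each in these differences cannot be told apart.

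**Figure D4:**
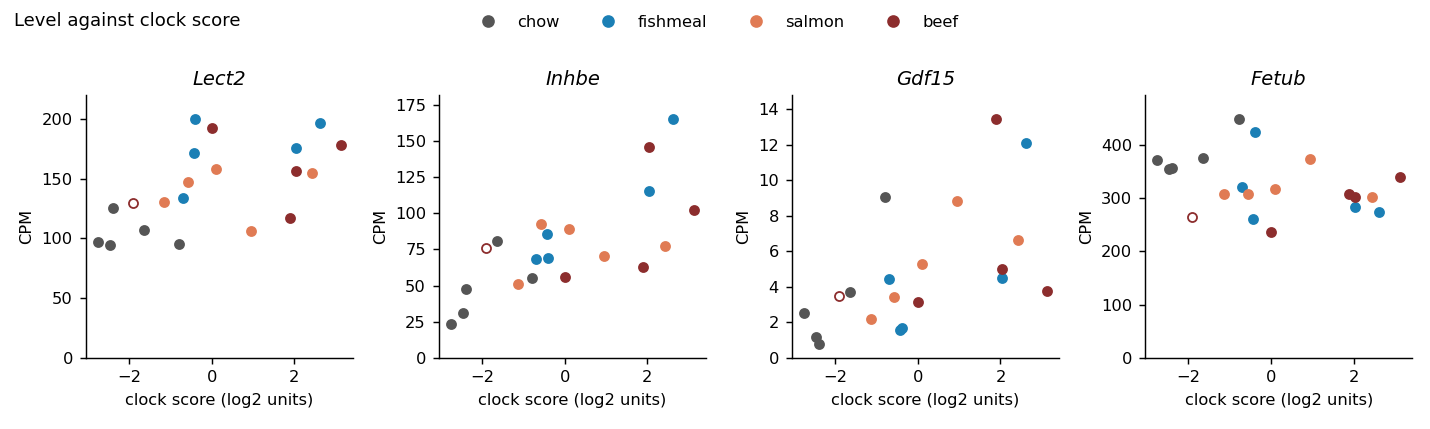
Each point is 1 mouse, with the clock score in log2 units on the horizontal axis and the level of 1 gene in CPM on the vertical axis, coloured by group, with mouse 31 open. All chow mice lie at scores of -0.79 or below. Gdf15 and Inhbe rise with the score within groups, and Lect2 does not pass the same test.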

How the data were processed

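Liver RNA of 20 mice was sequenced with a strand-specific TruSeq mRNA protocol. Per the labels, reads were aligned with HISAT2 (1.2.1) and counted with featureCounts (1.4.6-p1). The genome is named there as GRCh38, a human build name, although the gene identifiers are mouse. The authors deposited raw counts per gene and a table of TPM, which they made from counts and gene length before deposit. Counts were fitted in edgeR 4.0.16 (R 4.3.3) with TMM scaling, the filterByExpr filter at a minimum count of 10 and the quasi-likelihood F-test, and p-values were adjusted by Benjamini and Hochberg's method over every gene in the fit. Log2 CPM used a prior count of 2. Positions come from GENCODE M21 (GRCm38). Angptl8 was matched by the table's second symbol column, since the first names it Gm6484. Alternatives were DESeq2 1.42.0, DESeq2 size factors, no filter, 1 fit for all groups, limma 3.58.1 on log2(TPM + 1) or log2(TPM + 0.1) with a minimum mean TPM of 0.5 or none, the clock score as covariate, mouse 31 as annotated, and each mouse left out. Correlations used 100000 permutations within groups. The hepatokine genes and gene lists were chosen with earlier results of these data known. Named genes were all 9, up to 4 passing genes per pathway list by adjusted p, and the 3 genes most like each. Inhbc and Smoc1 were named beyond this rule after their values were seen. Some genes that the rule names are not reported here.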

Additional observations from a re-analysis of the deposited data

Results flagged for a closer look

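7 values lay far enough from the other 4 mice of their group to be listed, by Dixon's test at the 95% level in 36 groups of 5 mice, of which chance would list about 1 in 20. Fishmeal mouse 20 was highest in its group for Fgf21, with 9.49 CPM, and for Gdf15, with 12.1 CPM. Beef mouse 35, whose library had the lowest share of protein coding counts, was highest for Gdf15, with 13.4 CPM. Chow mouse 5 was highest for Fetub, with 448 CPM. Salmon filet mouse 23 was highest for Fetub, with 374 CPM, for Ahsg, with 9789 CPM, and for Enho, with 13.5 CPM.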

How the results depend on the processing

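Of the 23 fold changes given one by one, 3 changed sign and 10 changed their side of the threshold under at least 1 alternative. Of the other 40 fold changes, none passed in any fit and 28 changed sign in at least 1. The sign changes were Gdf15 in HFD versus chow with the clock score (-0.51), Angptl4 with the clock score (-0.39) and Ahsg with the clock score (-0.27) and with limma on log2(TPM + 1), log2(TPM + 0.1) or without a filter (-0.0473 in each). Leaving out 1 mouse gave -0.0741 to 0.0943 for Ahsg and -0.0996 to 0.46 for Angptl4.

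The number of hepatokine genes that passed was 2 in HFD versus chow, 3 in DESeq2 and in limma on log2(TPM + 1) or log2(TPM + 0.1) (Lect2, Inhbe and Fetub), 2 in limma without a filter (Lect2 and Fetub), 0 with the clock score, and 1 to 3 when 1 mouse was left out, with Inhbe lost without chow mouse 1, 2, 5 or 7 and Fetub gained without fishmeal mouse 12 or salmon filet mouse 23. In fishmeal versus chow it was 1, but 3 in DESeq2 (Lect2, Inhbe and Enho), 0 with the clock score and 1 to 2 when 1 mouse was left out (Inhbe without chow mouse 10, Fetub without mouse 12). In salmon filet versus chow it was 0, but 1 in DESeq2 (Lect2) and 0 to 1 when 1 mouse was left out (Lect2 without chow mouse 1 or salmon filet mouse 23). In beef versus chow it was 0, but 2 in DESeq2 (Lect2 and Fetub), 1 with mouse 31 as salmon, with all genes of at least 1 count or with all 4 groups in 1 fit (Lect2), 1 in limma on log2(TPM + 1) or log2(TPM + 0.1) (Fetub) and 0 to 1 when 1 mouse was left out (Lect2 without chow mouse 1 or beef mouse 31 or 35). The fits also differed in how many of all genes passed. In HFD versus chow 1669 of 17120 genes passed in edgeR, 2161 in DESeq2 and 313 with the clock score. In fishmeal versus chow these were 556, 1173 and 48 of 16471 genes. In salmon filet they were 728, 1748 and 19 of 16475, and in beef 499, 1184 and 18 of 16339. Inhbe in HFD versus chow had an adjusted p of 0.0809 in limma without a filter. Of the 36 pairs, 7 passed, 10 with log2(TPM + 1) and 4 to 10 when 1 mouse was left out, the lowest without chow mouse 5. The causes were not tested. With 5 mice per group, small differences between single protein sources could be missed, and the smallest detectable difference was not calculated. No paired analysis was possible because each mouse number belongs to 1 group.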
